A study of Bos taurus with 13 samples.

Results

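The genes described here encode proteins that form, branch, bind or pull on actin filaments: ACTB, ACTG2, MYH11, TPM1, TPM4, LASP1 and ARPC5. They are the 7 of 706 genes on a bovine mammary cDNA array that carry one of these symbols in the platform annotation, and they were proposed with earlier results of the same arrays in view. LASP1 had been named there for its ratio on the lactating arrays, TPM4 for ileum and ARPC5 for lymph tissue and liver, so those values are a description and carry no test. The 7 genes take up 168 of the 3888 spots. ACTB has 150 spots, all under 1 accession. They are counted here as 50 clones, each a set of 3 consecutive rows. Whether these are separate cDNA clones or 1 clone printed many times is not given in the sources used here. Each of the other 6 genes has 1 clone of 3 spots. In the files their gene identifiers are 280979 for ACTB, 281595 for ACTG2, 530050 for MYH11, 281544 for TPM1, 535277 for TPM4, 532851 for LASP1 and 614345 for ARPC5. The study hybridised 13 two-colour arrays with total RNA. On 8 of them, 1 per tissue, the reference cell line BovMac was labelled in channel 1. Channel 2 held spleen, thymus, lymph tissue, liver, ileum, adrenal tissue, adipose tissue, or the mammary gland of a prepubertal Holstein heifer of 136 kg. On 2 arrays lactating mammary gland was in channel 1, against the gland of a prepubertal Holstein heifer of 136 kg on array 1 and of 227 kg on array 2. The postpubertal array set a prepubertal gland (136 kg) against a postpubertal one (310 kg), and 2 arrays set the reference line against itself. Nothing in the labels says how many animals gave each RNA, or whether the lactating RNA of both arrays came from 1 cow.

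Actin monomers assemble into filaments that give a cell its shape and let it move and contract. The ARP2/3 complex starts new filaments as branches on old ones, tropomyosins lie along the filament and set which proteins may bind it, and myosin II pulls on it. In the mammary gland, myoepithelial cells with a smooth muscle type of contractile apparatus surround the secretory alveoli and squeeze milk into the ducts. In the gut wall, layers of smooth muscle lie beneath the epithelium.

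Each spot had 1 deposited log ratio of unstated base, and each array was centred on its median, so a value of 0 is the typical spot of that array. Which channel is the numerator is not stated. On the tissue arrays the direction is therefore unsettled: "high" and "low" are signs of the deposited ratio, and with the sign turned they trade places. On the lactating arrays the positive side is likely the lactating side. Of 9 measured milk secretion genes, 6 were above 0 on both arrays and 0 were below 0 on both, and the casein gene CSN1S1 stood at 1.61 on array 1 and 2.56 on array 2. An exact 0 was treated as missing, which removed 124 to 373 spots per array. Spots of 1 clone ranked alike on the tissue and lactating arrays, with a mean Spearman rho of 0.51 to 0.84, and on reference against reference array 1 (0.56). They hardly did on the postpubertal array (0.06) and on reference against reference array 2 (0.12). The smooth muscle and myoepithelium list had 0 of 16 genes measured, and the skeletal muscle, macrophage, adrenal and adipocyte lists also had 0. The enterocyte list had EPCAM, at 1.94 in ileum. The hepatocyte list had 3 genes of differing sign in liver, with FGG at 0.21, A2M at -0.27 and C3 at -1.10. The leukocyte list had PTPRC, at -0.09 in spleen, and LCP1, at -0.34 there. The fibroblast list had POSTN, at -1.52 in ileum, and the luminal epithelium list had KRT7, EPCAM and ELF5. In ileum KRT7 stood at 0.06 and ELF5 at 0.72. In the prepubertal gland KRT7 stood at -0.25, EPCAM at 0.05 and ELF5 at 0.30. On lactating arrays 1 and 2 KRT7 was at -0.48 and -0.02, EPCAM at -0.09 and 0.37, and ELF5 at -0.11 and -0.06. Smooth muscle, adipose, adrenal and macrophage identity could thus not be checked, and neither could the share of muscle cells in any RNA.

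ACTB, the cytoplasmic beta actin present in nearly every cell type, was below 0 in 7 of the 8 tissues. Its mean over all spots was lowest in adipose tissue at -0.38 ± 0.26 (SD over 150 spots). It then ran through spleen at -0.29 ± 0.31, prepubertal mammary gland at -0.21 ± 0.30, thymus at -0.20 ± 0.23, adrenal tissue at -0.18 ± 0.13 and lymph tissue at -0.15 ± 0.22. Liver followed at -0.01 ± 0.12 and ileum was highest at 0.21 ± 0.18. Ileum was the only one above 0. Of the 7 steps between neighbours in this order, only the step from liver to ileum (0.22) exceeded the pooled SD over spots of its neighbours (0.16). The same order of signs was seen by clone: 4 of 50 clone means lay below 0 in ileum, 28 in liver, and 35 to 50 in the other tissues. On the reference against reference arrays ACTB stood at -0.24 ± 0.23 and 0.19 ± 0.62, so a pair of arrays that should read 0 differed by 0.43. Adipose tissue and spleen lay below that span, ileum just above it and the other tissues within it. Among all measured genes, ACTB ranked higher than 1.14% in adipose tissue and higher than 75.4% in ileum.

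**Figure D1:**
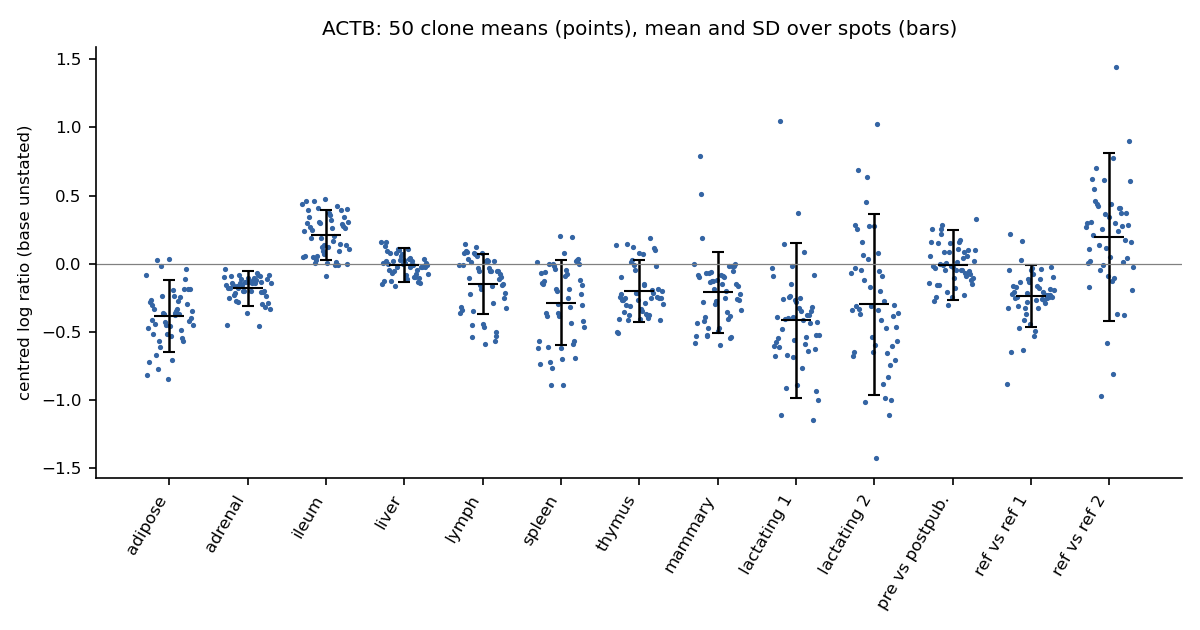
ACTB on the 13 arrays. Each point is the mean of 1 of 50 clones, the black line and bar give the mean and SD over all ACTB spots, and the y axis is the centred log ratio of unstated base. The points sit mostly below 0 in adipose tissue and mostly above 0 in ileum, and spread most on the lactating arrays and on reference against reference array 2.

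The 50 ACTB clones share 1 target, so their spread shows how far ratios of a single gene can lie apart on 1 array. In the tissues the SD within a clone was 0.09 to 0.20, and the SD of the clone means was 0.08 (liver) to 0.29 (spleen). Both were larger on the lactating arrays: 0.53 and 0.60 within clones, 0.37 and 0.49 between clone means. Outlying spots weighed in this. Over all ACTB spots the SD was 0.57 on lactating array 1 and 0.66 on array 2. A spread scaled from the median absolute deviation was 0.32 and 0.47, and 0.32 in spleen. Lactating array 1 had ACTB spots from -2.72 to 1.97 with a median of -0.34, and array 2 from -3.15 to 2.53 with a median of -0.31. Single ACTB spots on these arrays thus reached sizes that few gene means reached. The median spot SD of an ACTB clone was 0.32 on array 1 and 0.33 on array 2. The median over all named clones of 3 spots was 0.11 and 0.17, and 87.7% and 81.7% of those clones had a smaller spot SD. The position within a clone moved with it. On array 1 the first spots averaged -0.20 (SD 0.25), the second -0.45 (SD 0.60) and the third -0.60 (SD 0.70), and on array 2 they averaged -0.18, -0.33 and -0.39.

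The ACTB clone means also followed their order in the table. The ACTB spots are its first 150 rows, and in row order the clone means repeated with a period of 12 clones, a pattern that was noticed after the values were seen. In spleen, the clones at places 1 and 5 of each set of 12 averaged -0.003 and 0.008, those at places 2, 3 and 4 averaged -0.60, -0.68 and -0.77, and from place 5 the means declined to -0.44 at place 12. Ileum ran in the same shape at a higher level, with 0.42 at place 1, 0.01 at place 2, 0.41 at place 5 and 0.05 at place 12. Reference against reference array 1 ran the other way, with -0.43 at place 1, -0.51 at place 5 and 0.01 at place 4. The correlation of a clone mean with that of the clone 12 places on, over 38 pairs, was 0.91 in lymph tissue, 0.87 in spleen, 0.77 in ileum, 0.75 in adipose tissue and 0.71 in the prepubertal gland. It was 0.59 in thymus, 0.44 in adrenal tissue, 0.31 in liver, and 0.70 on reference against reference array 1. It was close to 0 on lactating array 2 (0.04) and the postpubertal array (-0.01), and was 0.20 on lactating array 1 and -0.15 on reference against reference array 2. Adjusted for the 12 means it fits, place took up 82.6% of the variance of the ACTB clone means in lymph tissue, 82.2% in spleen and 20.3% in adrenal tissue. On the lactating arrays it took up none (-0.40% and -7.41%). The same 12 places took up at most 0.76% over the other clones of any array, where the variance also holds differences between genes. Most of the spread between ACTB clones on 6 of the 8 tissue arrays thus followed row order. What the places stand for on the slide is not given in the sources used here, and a cause was not tested.

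**Figure D2:**
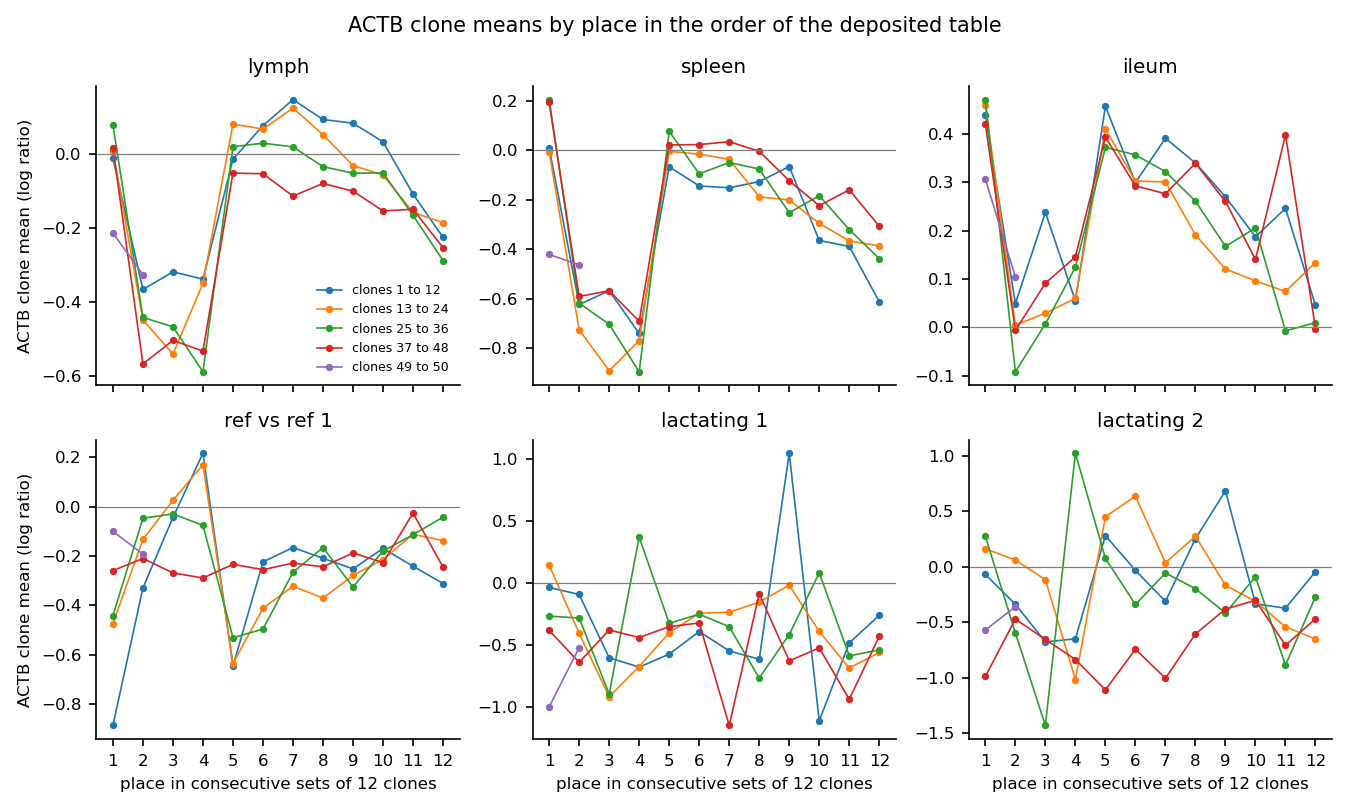
ACTB clone means (y axis, centred log ratio) by place in sets of 12 clones in row order (x axis), 1 line per set, on 6 arrays. On the lymph tissue, spleen and ileum arrays the lines lie over one another, with low values at places 2 to 4, while on the lactating arrays they cross without a shared shape.

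For the other genes, ACTB was used as a measure of how far 1 clone can stray. The distance between the limits of the middle 95% of the 50 ACTB clone means on an array was divided by 2, and the result is called the ACTB margin. It was 0.15 in liver, 0.18 in adrenal tissue, 0.23 in ileum, 0.31 in thymus, 0.34 in lymph tissue and 0.41 in adipose tissue. It was 0.51 in the prepubertal gland, 0.52 in spleen, and 0.70 and 0.88 on lactating arrays 1 and 2. As the period shows, much of this margin goes with row order on most tissue arrays. Adjusted, place took up 57.2% (thymus) to 82.6% (lymph tissue) of the variance of the clone means there. In liver it took up 23.2% and in adrenal tissue 20.3%. Over the other clones it took up at most 0.76%, but the variance there also holds differences between genes, so these shares are not alike. Whether the margin overstates how far clones of the other genes stray was not tested. The SD of the clone means was smaller than the SD within clones in liver, adrenal tissue and on both lactating arrays, and larger in the other tissues.

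ACTG2, the gamma actin of enteric smooth muscle, varied little between tissues. It stood at -0.26 ± 0.06 (SD over 3 spots) in thymus, -0.21 ± 0.08 in prepubertal gland and -0.18 ± 0.03 in adipose tissue. Lymph tissue followed at -0.10 ± 0.02, spleen at -0.00 ± 0.06, adrenal tissue at 0.02 ± 0.05, ileum at 0.04 ± 0.02 and liver at 0.06 ± 0.02. The whole range was 0.32, and no tissue value left the ACTB margin of its array. Ileum, whose wall holds much smooth muscle, lay between adrenal tissue and liver, and its place turned with the scaling: without centring it was the highest tissue at 0.07, and centred on ACTB the lowest at -0.17. The steps from adipose to lymph tissue, from lymph tissue to spleen and from ileum to liver exceeded the pooled SD over spots, and the other 4 did not. On the lactating arrays the spots disagreed: -0.41, 0.36 and 0.19 on array 1, and -1.03, -0.65 and -0.17 on array 2. The array means of 0.05 and -0.61 had opposite signs.

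MYH11, the heavy chain of smooth muscle myosin, had its highest values in spleen (0.30 ± 0.03), ileum (0.28 ± 0.03) and liver (0.20 ± 0.12). Spleen and ileum did not differ by more than their SD over spots. Centred on ACTB, ileum was no longer among the highest, at 0.07 beside 0.53 in spleen, 0.46 in adipose tissue and 0.21 in liver. Adipose tissue followed at 0.08 ± 0.04, lymph tissue at -0.02 ± 0.03, prepubertal gland at -0.06 ± 0.04, thymus at -0.07 ± 0.03 and adrenal tissue at -0.12 ± 0.07. Ileum and liver lay outside the ACTB margin of their arrays, and spleen lay inside its much wider one. The steps on either side of adipose tissue, and that from prepubertal gland to lymph tissue, exceeded the pooled SD over spots. The reference against reference arrays gave -0.19 and -0.09, and spleen and ileum lay farther from 0 than both, on the other side. Liver, also on that side, was about as far from 0 as the first of them. Lactating and prepubertal gland gave a picture like that of ACTG2: the MYH11 spots were -0.07, 0.18 and 0.15 on array 1, and -0.20, -0.42 and -1.13 on array 2. The means were 0.09 and -0.58, again of opposite sign.

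TPM1 and TPM4 encode tropomyosins, and both were lowest in ileum. TPM4, a tropomyosin found in many non-muscle cells, read -1.75, -1.63 and -1.70 on its 3 ileum spots, a mean of -1.69 ± 0.06. The next tissue, thymus, stood 1.27 higher at -0.42 ± 0.09. The other 6 tissues lay between -0.24 ± 0.05 in adipose tissue and 0.05 ± 0.05 in liver, with spleen at -0.17, lymph tissue at -0.11, adrenal tissue at -0.08 and prepubertal gland at -0.06. Only 0.43% of the genes on the ileum array were lower than TPM4. TPM4 was 1 of the 18 genes there at 1 log unit or more below 0 (2.57% of 700), the value it had been chosen for. TPM1, which gives rise to muscle and non-muscle forms, read -0.68, -0.72 and -0.75 on its ileum spots, a mean of -0.72 ± 0.04. It stood 0.45 below adrenal tissue (-0.27 ± 0.10), the next in order, against a pooled SD over spots of 0.07. Lymph tissue (-0.19 ± 0.08), thymus (-0.17 ± 0.18), adipose tissue (-0.10 ± 0.05) and prepubertal gland (-0.06 ± 0.06) came next, with no step larger than its SD. Spleen (0.27 ± 0.02) and liver (0.27 ± 0.09) were equal and stood 0.32 above the prepubertal gland. Ileum was the lowest of the 8 tissues for both tropomyosins also without centring, centred on ACTB, with exact 0 kept and with medians over spots.

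Over the 8 tissues TPM1 and TPM4 correlated with r = 0.80, but without ileum r was 0.36 over 7 tissues. TPM1 and MYH11 gave r = 0.14 over the 8 tissues and 0.92 over the 7 without ileum. The first pair thus rested on ileum, and the second pair parted there: in ileum MYH11 was at 0.28 and TPM1 at -0.72. All tissue values share the reference RNA, and 21 pairs of the 7 genes were computed. On the reference against reference arrays TPM1 stood at -0.24 and -0.28 and TPM4 at -0.01 and -0.21, both far from the ileum values. On lactating arrays 1 and 2 TPM1 was at 0.38 ± 0.07 and -0.06 ± 0.16, and TPM4 at -0.17 ± 0.08 and 0.09 ± 0.06, so each changed sign between the arrays.

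**Figure D3:**
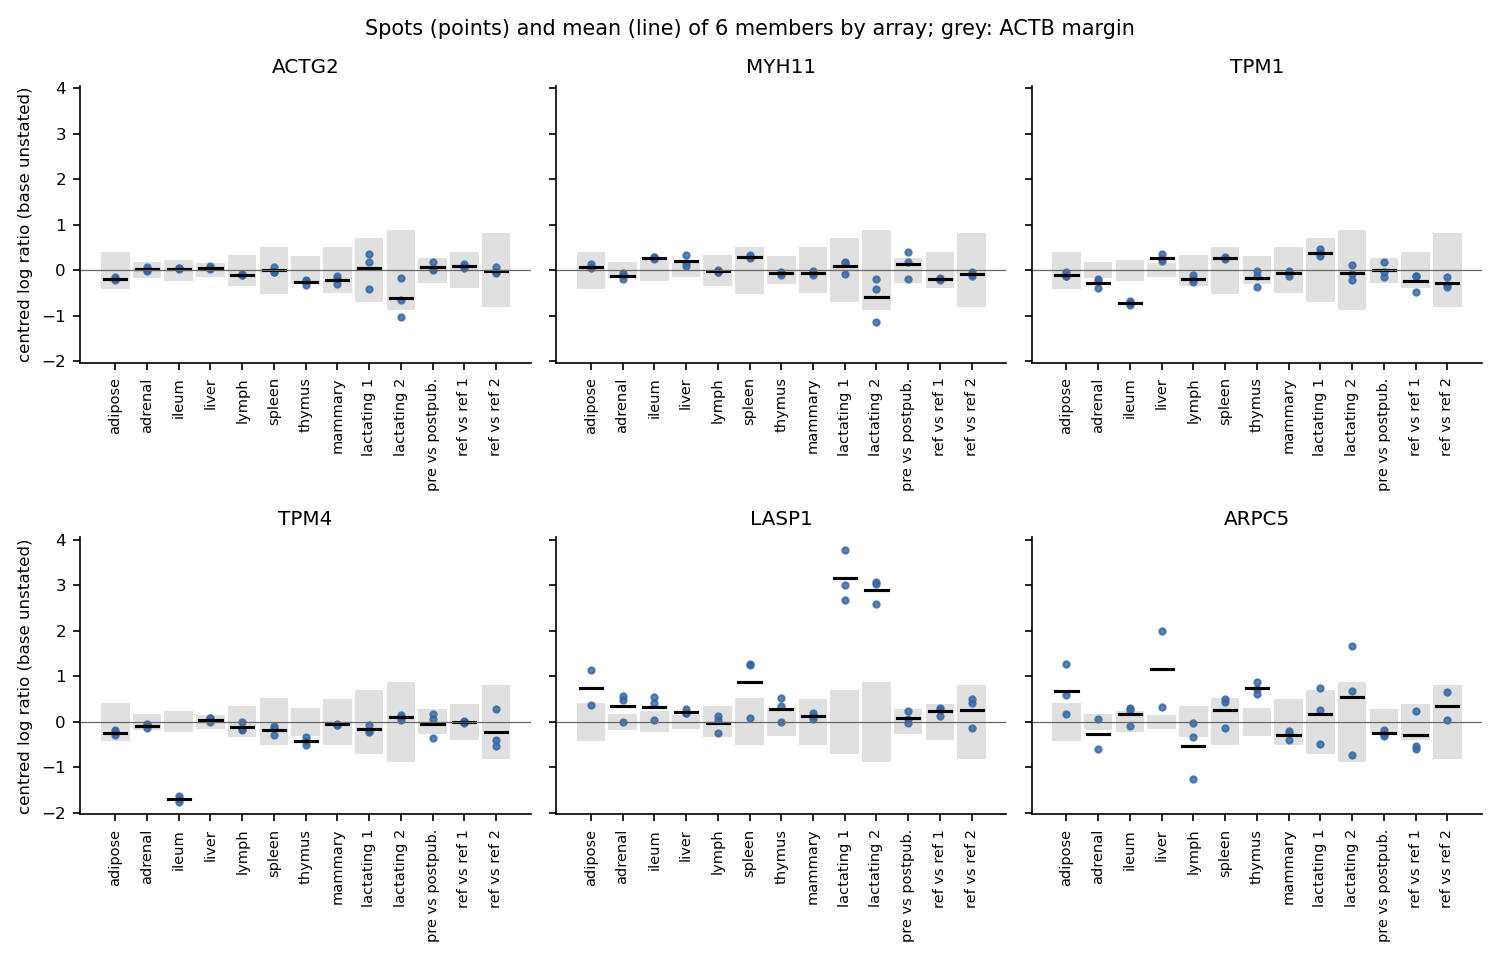
The 6 genes with 3 spots on all 13 arrays. Points are spots, black lines their mean, and grey bars the ACTB margin of each array, on a y axis of centred log ratio. The ileum spots of TPM4 and the lactating spots of LASP1 lie far outside the grey bars, and the spots of ARPC5 lie far apart on several arrays.

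LASP1, a LIM and SH3 domain protein that binds actin filaments at the cell edge, had the largest values of the 7 genes, on the lactating arrays. Its spots read 2.99, 2.68 and 3.77 on array 1 and 3.02, 2.59 and 3.07 on array 2. Every one of these 6 spots lay above the highest of the ACTB spots on its array (1.97 and 2.53). The mean was 3.15 on array 1 and 2.89 on array 2, or 3.02 ± 0.18 (SD, n = 2). It was the value LASP1 had been chosen for, so no p or interval is given. LASP1 was among the 24 genes at 1 log unit or more above 0 on both arrays (3.44% of 697), and lay above 99.7% and 99.6% of the genes. The gland of a 136 kg prepubertal heifer, the weight named on lactating array 1 but not array 2, stood at 0.13 ± 0.07 against the reference, and the postpubertal array gave 0.09 ± 0.13.

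In the tissues LASP1 was much smaller and its spots less even. Spleen had the highest mean at 0.86 ± 0.68, but its spots read 0.08, 1.27 and 1.25. Adipose tissue stood at 0.75 ± 0.54 on 2 spots, 0.37 and 1.13, the other being missing. In these 2 tissues the high mean thus came with a spot that did not share it. Adrenal tissue followed at 0.34 ± 0.30, ileum at 0.33 ± 0.26, thymus at 0.29 ± 0.27, liver at 0.22 ± 0.05 and lymph tissue at -0.02 ± 0.19. Only the steps from lymph tissue to prepubertal gland and from there to liver exceeded the pooled SD over spots. Reference against reference arrays gave 0.23 and 0.26, close to the liver, thymus, ileum and adrenal values although no tissue was on those arrays.

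**Figure D4:**
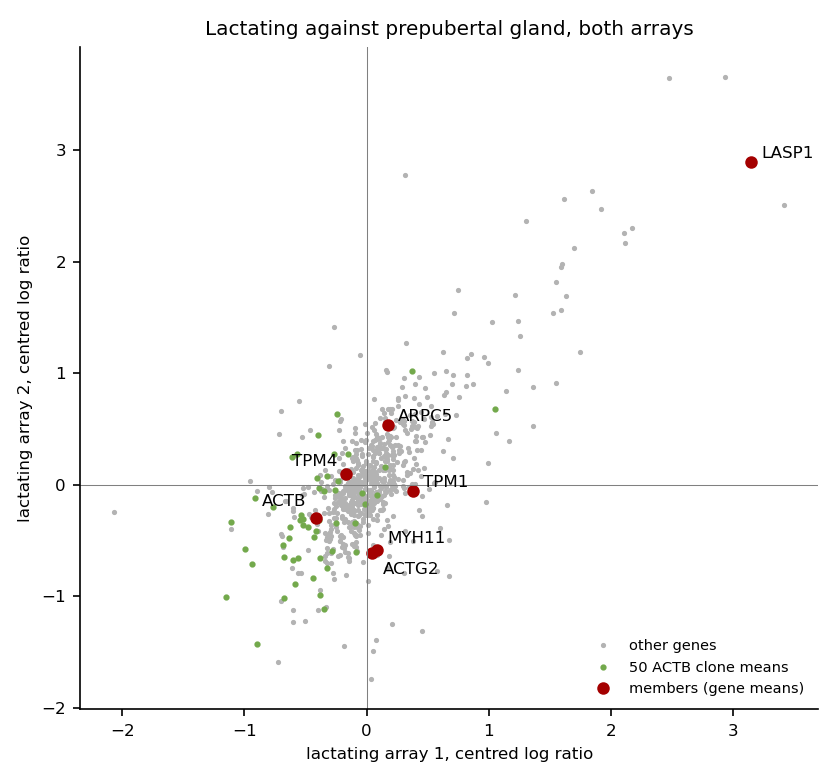
Centred log ratios of lactating against prepubertal gland on array 1 (x axis) and array 2 (y axis). Red points are the 7 genes, green points the 50 ACTB clone means, grey points other genes. LASP1 stands in the upper right corner at 3.15 and 2.89, ARPC5, TPM1, TPM4, ACTG2 and MYH11 lie among the other genes, and the ACTB clones spread from -1.43 to 1.05.

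ARPC5, the smallest subunit of the ARP2/3 complex, had the largest SD over spots of any of the 7 genes on a tissue array, in liver. Liver was highest at 1.16 ± 1.18, a mean of 2 spots that read 0.33 and 2.00. Lymph tissue was lowest at -0.54 ± 0.64, with spots of -0.02, -0.34 and -1.25. The 2 extremes for which ARPC5 had been chosen thus came from spots that lay far apart. In thymus they lay close, with spots of 0.73, 0.88 and 0.62 and a mean of 0.74 ± 0.13, above 99.4% of the genes on that array. Adipose tissue stood at 0.68 ± 0.55, spleen at 0.27 ± 0.35, ileum at 0.16 ± 0.21, adrenal tissue at -0.28 ± 0.47 on 2 spots and prepubertal gland at -0.29 ± 0.10. Only the step from adrenal tissue to ileum exceeded the pooled SD over spots. In lymph tissue 99.6% of the clones had a smaller spot SD than ARPC5, and in liver 99.4%. The reference against reference arrays gave ARPC5 at -0.30 and 0.35, a difference of 0.64 and the largest of the 7 genes. Prepubertal gland, adrenal tissue, ileum and spleen lay within that span. The lactating spots of ARPC5 ran from -0.49 to 0.74 and from -0.74 to 1.66, around means of 0.17 and 0.53.

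Whether lactating and prepubertal gland differed was tested for the 6 genes other than LASP1, with the mean of both arrays against 0 in a limma fit over 697 genes. In bulk RNA, fewer cells of a type and less RNA per cell cannot be told apart. Of all genes, 14.8% passed an adjusted p of 0.05, 79 above 0 and 24 below, and 0 of the 6 did. ACTB came nearest at -0.36 ± 0.08 (SD, n = 2), with a 95% interval of -0.68 to -0.04 and an adjusted p of 0.13 in limma. It was below 0 on both arrays, by 0.42 and 0.30, and 46 and 38 of 50 clones were below 0. On reference against reference arrays 1 and 2 it was 47 and 13 of 50, and clones on 1 array are not replicates. In a contrast with those reference arrays ACTB was at -0.34 (limma adjusted p = 0.45). ARPC5 was at 0.35 ± 0.25 (0.02 to 0.69, limma adjusted p = 0.15), above 0 on both arrays. In the same contrast it was at 0.33 (limma adjusted p = 0.57), and the reference against reference arrays alone gave -0.30 and 0.35. ACTG2 at -0.28 ± 0.47 (-0.65 to 0.09), MYH11 at -0.25 ± 0.47 (-0.62 to 0.12), TPM1 at 0.16 ± 0.31 (-0.18 to 0.50) and TPM4 at -0.04 ± 0.18 (-0.37 to 0.29) had limma adjusted p of 0.32 to 0.90. Their 2 arrays had opposite signs, and the intervals leave room for a difference of up to 0.65 log units below 0 or 0.50 above. These intervals rest mostly on a spread pooled over all genes, not on that of each gene's own 2 arrays. Centring on ACTB in place of all spots moved every gene up and put ACTG2, MYH11 and TPM4 above 0. The arrays also differ in the weight of the heifer, and array and heifer cannot be told apart.

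Set against the ACTB margin, LASP1 was the only one of the 6 genes with 1 clone to lie outside it on the lactating arrays, where 7.88% and 9.16% of all genes did. In the tissues, the counts were 3 or 4 on the arrays with the 3 narrowest margins and 0 to 2 on the others. In ileum 4 of 6 lay outside (MYH11, TPM1, TPM4 and LASP1), where 45.1% of all genes did. Liver also had 4 (MYH11, TPM1, LASP1 and ARPC5, against 28.6%), and adrenal tissue had 3 (TPM1, LASP1 and ARPC5, against 17.4%). Some of these values were no farther from 0 than a reference against reference array. They were TPM1 in liver (0.268) and adrenal tissue (-0.272) beside -0.277, LASP1 in liver (0.22) beside 0.26, and ARPC5 in adrenal tissue (-0.28) beside 0.35. MYH11 and ARPC5 in liver and LASP1 in adrenal tissue were farther from 0 than both reference arrays, MYH11 only just. Thymus had 2 (TPM4 and ARPC5, against 17%), and adipose tissue 2 (LASP1 and ARPC5, against 2.29%). Lymph tissue had 1 (ARPC5, against 13.7%), spleen 1 (LASP1, against 2.28%) and the prepubertal gland 0 (against 5.56%). The counts in ileum, lymph tissue, liver and the lactating arrays include the values for which TPM4, ARPC5 and LASP1 were chosen.

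Of a list of 166 other actin pathway genes, 19 were measured. On lactating against prepubertal gland 1 passed above 0 and 4 below, where 14.8% of all genes passed (79 above 0 and 24 below), and the list's median was -0.07, against -0.0003 over all genes. MSN (moesin), which ties actin filaments to the cell membrane, was at 1.05 ± 0.13 (limma adjusted p = 0.00015). Below 0 were NET1, an exchange factor for RHOA, at -0.75 ± 0.50 (0.0085), and SGCB (beta-sarcoglycan), a membrane protein of muscle, at -0.53 ± 0.37 (0.042). So were RAC2, a small GTPase of blood cells, at -0.53 ± 0.39 (0.044), and CAPZA2, a subunit of the protein that caps filament ends, at -0.49 ± 0.21 (0.048). In all 15 of 19 were below 0. The median over all genes was -0.0003, so about as many of all genes lay above 0 as below. The exact share of all genes below 0 was not counted. The 4 that passed below 0 no longer did so when centred on ACTB, with exact 0 kept, with arrays scaled to the same spread or against the reference arrays. With medians over spots, or with 1 spot per feature allowed, only NET1 of these 4 still passed (limma adjusted p = 0.036 and 0.033). All 4 passed without centring. Without array 1 NET1 no longer passed (-0.40), and without array 1 or array 2 neither did SGCB (-0.79 and -0.27), RAC2 (-0.26 and -0.81) or CAPZA2 (-0.64 and -0.34). MSN no longer passed without lactating array 2 (0.96, limma adjusted p = 0.10), nor in a contrast with the reference against reference arrays (1.12, 0.070). By role, 1 of 5 crosslinking genes, 1 of 4 filament turnover genes, 1 of 5 adhesion genes, 2 of 4 signalling genes and 0 of 1 nucleation genes passed, counts too small to set apart from the 14.8% of all genes.

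In ileum, 4 of the 19 lay at 1 log unit or more from 0, against 6% of all genes there in either direction. PARVA (alpha-parvin), which links integrins to actin, was at -1.91 ± 0.59, ACTN1 (alpha-actinin), which bundles filaments, at -1.44 ± 0.08 and MSN at -1.23 ± 0.05. NET1 was on the other side at 1.01 ± 0.10, with RAC2 at 0.85 ± 0.09 and ACTR2 of the ARP2/3 complex at 0.62 ± 0.19 behind it (SD over 3 spots). TPM4 was thus not the only actin gene far below 0 in ileum, and the list's median there, -0.05, was close to that of all genes, 0.02. The spread of the list in ileum was 2-sided, with 11 of 19 below 0, where 47.1% of all genes were. Beside them POSTN, an extracellular matrix protein of fibroblasts, stood at -1.52 and EPCAM, an epithelial adhesion molecule, at 1.94, and their part in the actin values was not tested. In the prepubertal gland PARVA stood at -1.25 ± 1.36, and in the other tissues 0 of the 19 reached 1 log unit. MSN, NET1 and RAC2 each had opposite signs in ileum and on the lactating arrays, but ileum RNA was in channel 2 and lactating RNA in channel 1.

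**Figure D5:**
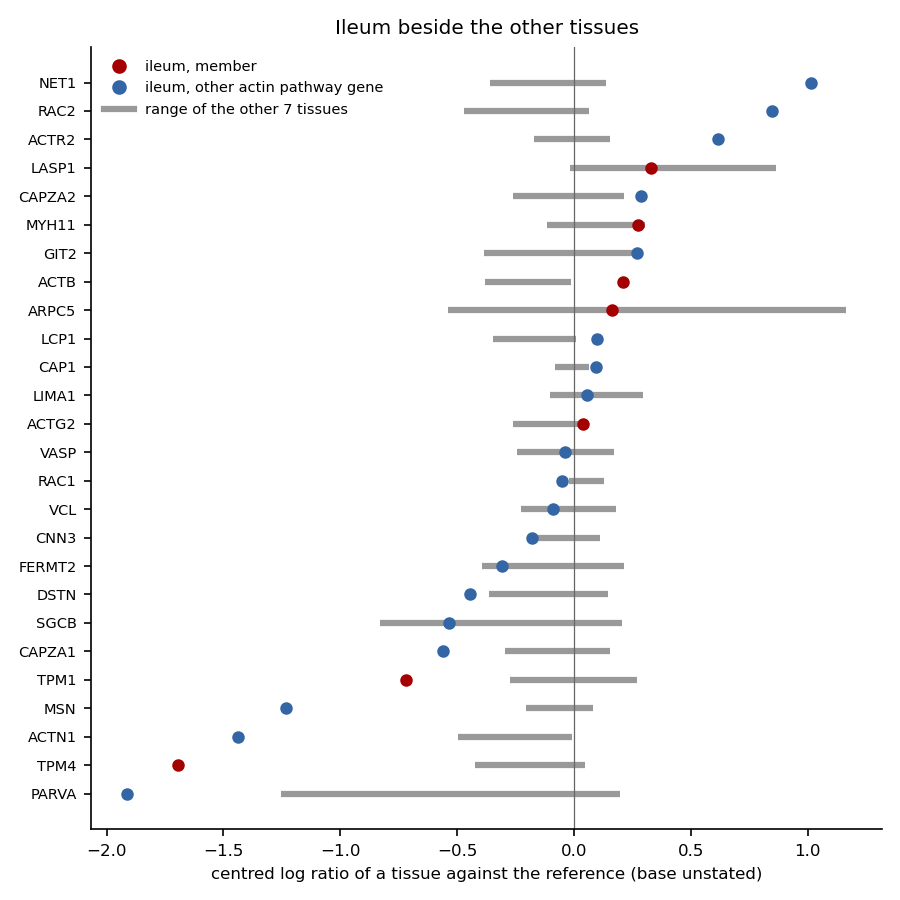
Ileum values (points) of the 7 genes in red and of 19 other actin pathway genes in blue, in order, beside the range over the other 7 tissues (grey bars), on an x axis of centred log ratio. TPM4 at -1.69 and TPM1 at -0.72 lie below the bars of their genes, as do ACTN1 and MSN, while ACTG2 at 0.04 and LASP1 at 0.33 lie within theirs.

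For each gene the other gene with the most similar values over the 8 tissues was found among 694 genes with a value in all of them. TPM4 was most like SERBP1 (r = 0.99), MYH11 like MRPL9 (r = 0.95), TPM1 like SEPTIN2 (r = 0.93) and ACTB like TNC (r = 0.92). ACTG2 was most like TAF1D (r = 0.89), ARPC5 like ZC3HC1 (r = 0.86) and LASP1 like EMC3 (r = 0.79). Each is the highest of many correlations over 8 points that share the reference. Without ileum only MYH11 kept its partner (MRPL9, r = 0.96 over 7 tissues). The partners became SUMO3 for ACTB (r = 0.92), POSTN for ACTG2 (r = 0.97), PHYH for TPM1 (r = 0.95) and NFKBIZ for TPM4 (r = 0.96). For LASP1 it became FABP5 and for ARPC5 CSN1S1 (both r = 0.89), whose own values over those 7 tissues lay between -0.15 and 0.15 and between -0.09 and 0.07. SERBP1 illustrates the limit: it was at -0.50 in ileum and between -0.17 and -0.05 in the other tissues, so its likeness to TPM4 rests on ileum.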

How the data were processed

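The deposited table holds 1 log ratio per spot and array. The sources used here do not state its log base, its channel order, or how the authors corrected background and normalized, and no intensities were used. Symbols came from the platform annotation, updated by gene identifier through RefSeq. Exact 0 was treated as missing and each array was centred on its median. The spots of 1 accession, at least 2, were averaged into a feature, features present on 7 arrays or more were retained, and a gene is the mean of its features. For the 2 lactating arrays limma 3.58.1 in R 4.3.3 (lmFit, eBayes) tested over 697 genes whether the mean differs from 0 in either direction, with Benjamini-Hochberg adjustment at 0.05. The code was checked on simulated data. Tissue arrays have no replicate and no test. Nothing says that the 2 lactating arrays hold separate animals, so p-values rest only on differences between these 2 arrays. Most of the spread used was pooled over all genes (13.5 of 14.5 degrees of freedom), so each gene's own spread weighed little.

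The members and gene lists were chosen with earlier results of these data known. Named were all 7 members, other actin pathway genes past adjusted p 0.05, 1 log unit from 0 in a tissue or at an end of their list, and the gene most like each member. The lists were actin pathway, smooth muscle and myoepithelium, skeletal and cardiac muscle, fibroblast, macrophage, leukocyte, hepatocyte, enterocyte, adrenal, adipocyte, milk secretion and luminal epithelium. Alternatives were no centring, centring on ACTB, keeping exact 0, medians over spots, 1 spot per feature and arrays scaled to 1 spread. Others were a contrast with the reference against reference arrays, and leaving out a lactating array. For the ACTB spread the median absolute deviation was also used. The title of lactating array 2 was followed although a keyword calls it post-pubertal, and 1 reference label spells the cell line BovMav. Python 3.11.15, numpy 2.4.6, pandas 2.3.3 and matplotlib 3.10.9 did the rest.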

Additional observations from a re-analysis of the deposited data

How the results depend on the processing

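Of 136 features past adjusted p 0.05 on the lactating arrays, the count became 223 centred on ACTB, 26 with exact 0 kept, 51 with arrays scaled to the same spread and 20 against the reference arrays. Leaving out a lactating array gave 13 to 40. The 103 genes became 32, 30 and 13 under the last 3 of those settings and 22 to 48 without 1 lactating array, the lone array being assumed to vary like the reference arrays. Of the genes called, 76.7% lay above 0, but 61.9% without centring and 100% centred on ACTB.

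LASP1 on the lactating arrays was 3.34 centred on ACTB and 2.77 against the reference arrays, and TPM4 in ileum was -1.90 centred on ACTB. The sign of a lactating mean turned for ACTG2 (0.036), MYH11 (0.073) and TPM4 (0.28) centred on ACTB, and for TPM4 (0.074) against the reference arrays. Without 1 lactating array ACTG2 ran from -0.61 to 0.046, MYH11 from -0.58 to 0.087, TPM1 from -0.057 to 0.38 and TPM4 from -0.17 to 0.094. Of the members' tissue values recomputed, 186 moved by less than their SD over spots and 38 by more, 33 of these with centring on ACTB. The number of arrays limits the precision.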
